A study of Homo sapiens with 4 samples.

Results

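The regions described here are shared c-Jun binding sites whose place in the ranking of peaks fell with TNFalpha. They are 557 of 2231 pairs of overlapping c-Jun peaks in BT549, a human line long grown in culture from a triple-negative breast tumour. Each peak called against IgG with TNFalpha was paired with the highest scoring peak called against IgG without TNFalpha that it overlapped by at least 1 bp. The score of each peak was converted to a percentile of its own list, in which 100 is the highest scoring peak, and the 25% of pairs with the lowest percentile with TNFalpha minus percentile without were taken as members. The members were thus chosen by their scores in the IgG-controlled lists, and those values are given below as a description.

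AP-1 is a family of paired DNA-binding proteins in which c-Jun joins a FOS, ATF or other JUN protein, and much of its binding is at enhancers. TNFalpha is an inflammatory cytokine whose receptor activates JNK, a kinase that phosphorylates c-Jun, and NF-kB. JNK signalling and c-Jun are known for their part in inflammatory gene expression and in the migration of tumour cells.

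The cells were serum-starved overnight, and chromatin was fixed with 1% formaldehyde for 10 minutes. There were 2 c-Jun libraries, 1 from cells without TNFalpha and 1 from cells with TNFalpha. The IgG library and the input library, used as controls for both, came from cells that received TNFalpha. The sample labels give 6 hours of TNFalpha and the series text gives 3 hours. With 1 library per condition no difference has a replicate check, no p-value was computed, and intervals below are 95% Wilson intervals that cover counting error only and treat regions as independent. Read depth is unknown. Positions are on hg19, and neither genes nor base sequences were assigned to the regions, so they are named by position alone.

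The IgG-controlled lists held 4439 peaks with TNFalpha and 3323 without it. The 2231 pairs made up 50.3% of the first list, and their 2221 different partners made up 66.8% of the second. Over all pairs the median percentile change was 0.36 points, with an interquartile range from -16.1 to 20.02. The members were spread over chromosomes 1 to 22 and X, with 1 member on an unplaced sequence of chromosome 17.

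The members went from the upper part of the list without TNFalpha to the lower part of the list with it. Without TNFalpha they lay at percentiles 19.98 to 98.6 with a median of 71.8, and with TNFalpha at 0.23 to 79.6 with a median of 30.5. The median fall was 32.7 points, from 16.1 to 89.6. Of the 557 members, 457 were in the higher scoring 50% of the list without TNFalpha (63.0% of all pairs were), and 129 were in the higher scoring 50% of the list with it (65.3% of all pairs were). A total of 328 crossed the middle of the ranking, from above to below. In all pairs, 16.0% made that crossing, a share that the rule itself raises among members. The members were 25% of pairs by construction.

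**Figure D1:**
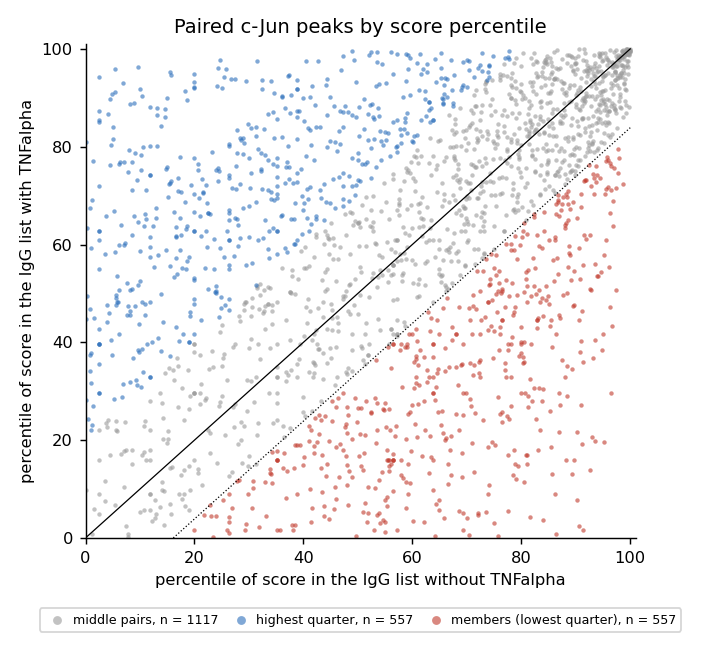
Each point is a pair of overlapping c-Jun peaks, placed by its score percentile in the IgG-controlled list without TNFalpha (horizontal) and with TNFalpha (vertical). The solid line marks equal percentiles and the dotted line the fall of 16.1 points beyond which the 557 members (red) lie; the highest 25% of pairs are blue.

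Members included strong sites of the untreated cells. In the list without TNFalpha, 71 members (12.7%) were in the highest scoring 10%, which held 14.7% of all pairs. In the list with TNFalpha the rule allows no member in the highest scoring 10%, since each fell by more than 16.1 points, and 0 members were there, where 16.7% of all pairs were. The share of pairs that were members was 1.71% among those starting in percentiles 0 to 25, much of which lies too low for a fall of that size, 19.8% (16.5 to 23.7%) in 25 to 50, 33.8% (30.2 to 37.6%) in 50 to 75 and 31.5% (28.3 to 34.8%) in 75 to 100. The share was thus higher in percentiles 50 to 75 and 75 to 100, whose intervals overlap, than in 25 to 50. It was not even within 75 to 100, where 246 of 781 pairs were members. In the highest scoring 10%, 71 of 329 pairs were.

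The choice of members at the edge was close. The changes of the 3 pairs just inside the cutoff were -16.15, -16.12 and -16.12 points, and those of the 3 just outside were -16.09, -16.04 and -15.99. There was no tie at the cutoff. The list with TNFalpha is longer, and 227 of the 557 members ranked below place 3323 in it, the length of the other list. Of all 2231 pairs, 326 did. When the longer list was shortened to that length these 227 were no longer in it, and 330 of the 557 members were still members.

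The largest fall was at a peak on chromosome 11 from 120271510 to 120271859. It ranked 289 without TNFalpha (percentile 91.3, score 174) and 4341 with TNFalpha (percentile 1.71, score 50.8). In the input-controlled lists the same site went from percentile 97.9 to 70.8. That was from rank 167 of 7919 peaks to rank 2346 of 8040 against input, while it came close to the lowest score against IgG. The input-controlled lists are longer than the IgG-controlled ones, so percentiles against the 2 controls are not on 1 scale.

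The peak with the next largest fall, on chromosome 17 from 63510734 to 63511045, went from percentile 90.5 to 2.39 against IgG and from 95.1 to 8.39 against input. Its width went from 750 bp to 312 bp. Here both controls placed the site near the bottom with TNFalpha. On chromosome 6, the peak from 166970366 to 166970779 also fell against both controls, from percentile 86.2 to 8.98 against IgG and from 78.6 to 8.54 against input. On chromosome 9, the peak from 22216810 to 22217149 went from 81.7 to 4.26 against IgG and from 83.6 to 8.39 against input.

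On chromosome 1, a peak from 55895090 to 55895329 with TNFalpha went from percentile 86.3 to 0.74. Its partner without TNFalpha was a single peak of 725 bp, from 55894668 to 55895392, which with TNFalpha was called as 2 separate peaks. The other of these, from 55894694 to 55895088, was also a member and went from percentile 86.3 to 41.7. On chromosome 2, the peak from 85725878 to 85726131 went from percentile 95.2 to 19.7 and likewise shared its partner, of 602 bp, with a neighbour. That neighbour, from 85726154 to 85726607, was at percentile 87.4 with TNFalpha and was no member. At both places the lowest rank belonged to 1 of 2 peaks that met the same partner.

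The remaining sites among the 10 with the largest fall lay on chromosomes 3, 8 and 20. The peak on chromosome 3 from 64252135 to 64252504 went from percentile 92.7 to 13.8, and on chromosome 8 the peak from 94892385 to 94892939 went from 89.3 to 13.04. On chromosome 8 the peak from 33185146 to 33185595 went from 90.3 to 7.73, and on chromosome 20 the peak from 49379053 to 49379740 went from 84.0 to 3.65. The last 2 had no overlapping peak against input with TNFalpha. Without TNFalpha they were at percentiles 85.9 and 0.95 against input, so the chromosome 20 site was near the bottom of that list already. All of the 10 were narrower with TNFalpha, at 0.33 to 0.92 of their width without it, where 35.5% of all pairs were narrower. None of the 10 had a peak found only with TNFalpha within 20 kb, where 14.7% of all pairs had one. With only 10 sites, 0 cannot be told apart from that share.

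The 10 members with the highest scores without TNFalpha were a separate set, with 0 sites in common with the 10 largest falls. The highest lay on chromosome 10 from 95506631 to 95507182. It ranked 48 without TNFalpha (score 319) and 1225 with TNFalpha (score 123), a fall from percentile 98.6 to 72.4. Against input it went from 97.6 to 60.3.

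The next lay on chromosome 5 from 26553162 to 26553582, with a rank of 69 without TNFalpha and 990 with it. Against input it went from percentile 99.7 to 96.5, which is from rank 25 to rank 279. The peak on chromosome 12 from 58704547 to 58705004 went from 97.1 to 75.6 against IgG and from 99.3 to 93.6 against input. Both sites were in the highest scoring 10% against input in both conditions, at lower ranks with TNFalpha.

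The largest fall in this set was at the peak on chromosome 6 from 148103387 to 148103859, from rank 111 to rank 2515 (percentile 96.7 to 43.4 against IgG and 98.1 to 62.5 against input). The peak on chromosome 5 from 95590604 to 95591020 went from rank 86 to rank 2188 (percentile 97.4 to 50.7), and its width went from 936 bp to 417 bp. Of the others, 1 was on chromosome 8 from 35402725 to 35403228. Chromosome 7 held 2, at 28725401 to 28725849 and at 41956186 to 41956494, and chromosome 3 held 2, at 109404178 to 109404572 and at 11507330 to 11508110. Their percentiles with TNFalpha ranged from 63.9 to 79.6. Of the 10, 9 were still in the higher scoring 50% with TNFalpha, and against input all 10 were lower with TNFalpha, with changes from -43.8 to -3.15 points.

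The lists called against input hold a second score for nearly every member. They come from the same c-Jun reads, so they show whether the fall depends on which of these 2 controls was used and do not replicate it. Both controls came from cells with TNFalpha, so the effect of a control from untreated cells could not be checked. Both input-controlled lists held a peak at 502 of the members (90.1%), where 92.3% of all pairs had both. At 496 of the 502 the percentile was lower with TNFalpha (98.8%, 97.4 to 99.5%), where 54.0% of all pairs were lower. The median input-controlled percentile was 83.9 without TNFalpha over the 541 members with a value, and 58.6 with TNFalpha over 503. The median change was -23.0 points in the 502 members with both, against -1.41 over all pairs. A fall against input at least as large as the IgG-controlled cutoff of 16.1 points was seen at 350 of 502 members, where 20.4% of all pairs had one. With members chosen in the input-controlled lists the cutoff was -20.8 points, so the same threshold is not equivalent against the 2 controls. The members were chosen for their change against IgG, so the sizes of the changes against the 2 controls are not compared. Across 2059 pairs the changes against IgG and against input had a Spearman correlation of 0.89, a description of calls that share all c-Jun reads.

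**Figure D2:**
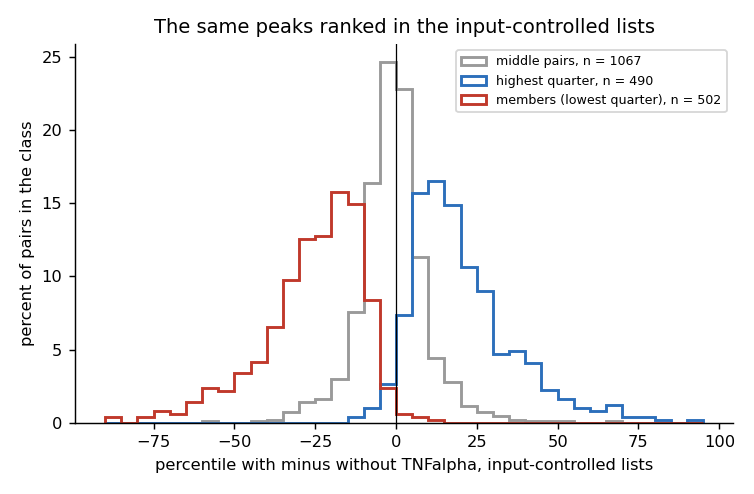
Distribution of the percentile with TNFalpha minus the percentile without it in the input-controlled lists, as the percent of each class of pairs per bin of 5 points, for pairs with a peak in both input-controlled lists. Members (502) lie almost wholly below 0, the 1067 middle pairs centre near 0, and of the 490 pairs of the highest 25%, all but 20 lie at or above it.

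At 6 members the input-controlled percentile was not lower with TNFalpha. The difference was at most 10.1 points, on chromosome 6 from 136133444 to 136133738, where the IgG-controlled percentile went from 66.4 to 49.1. Another, on chromosome 6 from 47027015 to 47027352, fell from 50.9 to 13.99 against IgG and went from 38.3 to 46.3 against input. Without TNFalpha the 6 were at percentiles 9.55 to 58.1 against input.

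Some members no longer had any input-controlled peak with TNFalpha. In all, 503 members (90.3%) had one with TNFalpha, where 96.1% of all pairs did. A loss was seen at 39 members that had one without TNFalpha (7.0%, 5.16 to 9.43%), where 2.20% of all pairs showed this. The opposite was seen at 1 member, where 3.77% of all pairs showed it, and 15 members (2.69%) were in neither input-controlled list, where 1.75% of all pairs were. The 39 had a median percentile of 51.3 against input without TNFalpha, and their median IgG-controlled percentile went from 62.1 to 16.0. The best ranked of them against input lay on chromosome 8 from 8167921 to 8168654 (percentile 88.7 against input without TNFalpha). On chromosome 20, the peak from 48127080 to 48127517 was at 85.4 against input without TNFalpha and still at 57.9 against IgG with TNFalpha. These are sites called with TNFalpha against 1 control only. The rule takes peaks that rank lower with TNFalpha, and both kinds of list share all c-Jun reads. The choice of members therefore favours such losses over the opposite, and the shares are a description.

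The members also narrowed, while most shared sites widened. Their median width went from 434 bp to 379 bp, and the median ratio of the widths was 0.89, against 1.10 over all pairs. Of the members, 385 were narrower with TNFalpha (69.1%, 65.2 to 72.8%), where 35.5% of all pairs were. At 204 members the peak with TNFalpha lay wholly inside the peak without it (36.6%, 32.7 to 40.7%), where 16.3% of all pairs did. The reverse arrangement, a peak without TNFalpha inside the peak with it, was seen at 49 members (8.80%), where 36.0% of all pairs had it. A further 167 members (29.98%) were wider with TNFalpha, where 64.0% of all pairs were, and 5 had the same width. Width and score come from the same reads, so the width is not separate support for the fall.

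**Figure D3:**
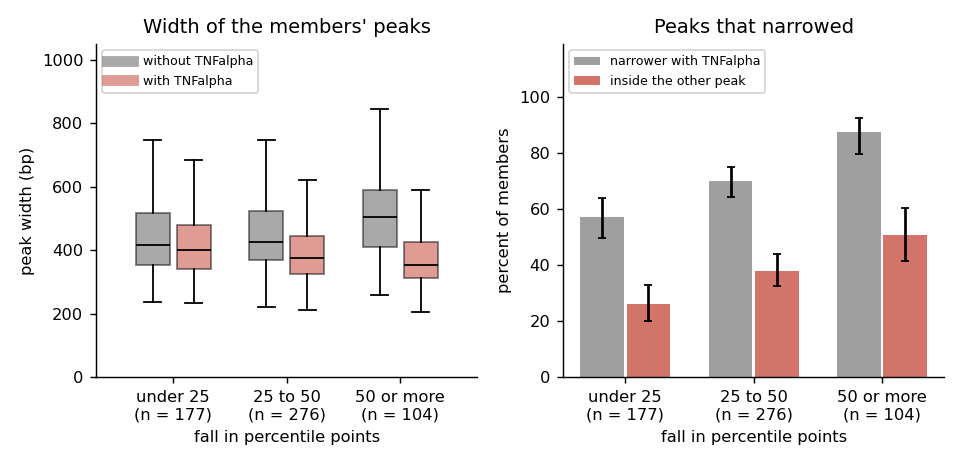
Left, widths of the members' peaks without (grey) and with TNFalpha (red), by size of the fall in percentile points; boxes give the quartiles and the median, and whiskers the furthest value within 1.5 times the interquartile range. Right, the percent of members that were narrower with TNFalpha (grey) or lay inside the partner peak (red), with 95% Wilson intervals, from 57.1% to 87.5% and from 26.0% to 51.0%.

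Narrowing was more frequent in members with larger falls. Members that fell by under 25 points (177) had a median width of 417 bp without and 400 bp with TNFalpha. Those that fell by 25 to 50 points (276) went from 427 to 376.5 bp. Those that fell by 50 points or more (104, or 18.7% of members, where 4.66% of all pairs fell this far) went from 504.5 to 354.5 bp, and 91 of them were narrower with TNFalpha (87.5%, 79.8 to 92.5%). The median input-controlled change of the 3 groups was -15.5, -24.7 and -37.6 points. The other 13 of the 104 were not narrower. The 3 groups also differed in start, with median percentiles of 65.7, 68.1 and 80.2 without TNFalpha. They were cut on the rule's own value, and width and both scores share the same c-Jun reads, so these trends are a description. Widths were not compared between the groups at equal starting ranks.

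The distance between paired centres in members was near that of all pairs. Pairing requires overlap, which keeps this distance small, so it cannot show whether sites moved. The centres of the paired peaks were a median of 40 bp apart in members, against 42.5 bp over all pairs, and 81 members (14.5%) had centres at least 100 bp apart, where 17.0% of all pairs did. In 253 members the shorter peak lay wholly within the longer, and in 6 the overlap was under 50% of the shorter peak. The peak with TNFalpha was the inner peak in 204 members (36.6%), where it was in 364 of all 2231 pairs (16.3%). The peak without TNFalpha was the inner peak in 49 members (8.80%), where it was in 803 of all pairs (36.0%). With either arrangement counted, nesting was less common in members than in all pairs. There were 10 members whose partner without TNFalpha also belonged to another pair, where 20 of all pairs shared a partner in this way. On chromosome 20, for example, a peak from 52421800 to 52422208 fell from percentile 85.7 to 12.98, while its neighbour from 52422302 to 52422789, paired with the same peak, was at 79.4. On chromosome 5, a peak of 841 bp was called with TNFalpha as a member from 110120575 to 110120953 at percentile 59.7 and a higher ranked peak from 110120958 to 110121488 at 91.9. On chromosome 20 from 13328555 to 13328913 the overlap was a few bases at the edge of the partner.

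The surroundings of the members were compared with those of other pairs through peaks found in 1 library only. These peaks are in no pair, but they are part of the whole lists in which the rule ranks each peak. A peak was counted as found only with TNFalpha if it was called against IgG and overlapped no peak of either list without TNFalpha. There were 1683 such peaks, and 729 found only without TNFalpha by the same rule. A peak found only with TNFalpha lay within 20 kb of 66 members (11.8%, 9.42 to 14.8%), where 14.7% of all pairs had one. Among the 1674 other pairs the share was 15.6% (13.9 to 17.4%), and among the highest 25% of pairs 19.03% (16.0 to 22.5%). The interval of the members overlaps that of the other pairs and does not overlap that of the highest 25%. Within members, the share was 16.4% (11.7 to 22.5%) for falls under 25 points and 6.73% (3.30 to 13.2%) for falls of 50 or more, and these intervals overlap.

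**Figure D4:**
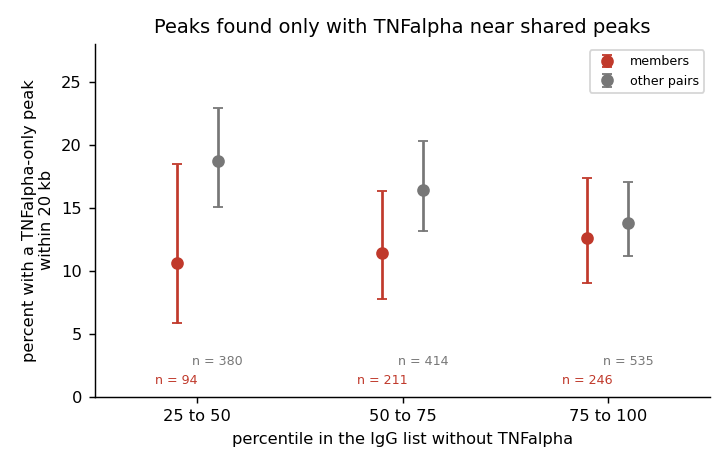
Percent of members (red) and other pairs (grey) with a peak found only with TNFalpha within 20 kb, by percentile in the IgG-controlled list without TNFalpha, with 95% Wilson intervals. The values for members are 10.6%, 11.4% and 12.6% and those for other pairs 18.7%, 16.4% and 13.8%, and the intervals overlap in each range; percentiles 0 to 25, with 6 members, are not drawn.

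Since members start higher than other pairs, the same share was taken at equal starting ranks. For pairs in percentiles 25 to 50 without TNFalpha it was 10.6% in 94 members (5.88 to 18.5%) and 18.7% in 380 other pairs (15.1 to 22.9%). In percentiles 50 to 75 it was 11.4% (7.76 to 16.4%) and 16.4% (13.2 to 20.3%), and in 75 to 100 it was 12.6% (9.02 to 17.3%) and 13.8% (11.2 to 17.0%). The members were lower in each of these 3 ranges, by amounts within the counting error of each range. In percentiles 0 to 25, which held only 6 members, 1 of the 6 had such a peak (16.7%, 3.01 to 56.4%), against 13.9% of 345 other pairs (10.7 to 17.96%). Peaks found only without TNFalpha lay within 20 kb of 37 members (6.64%, 4.86 to 9.02%) and of 4.90% of other pairs (3.96 to 6.04%), where the share in all pairs was 5.33%. Those intervals overlap as well.

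The members did not lie in large blocks. Another pair lay within 20 kb of 113 members (20.3%, 17.2 to 23.8%), where 20.9% of all pairs had one. When successive pairs up to 100 kb apart were chained, 483 groups held 1 member, 34 held 2 and 2 held 3. For the highest 25% of pairs, equal in number, 458 groups held 1, 45 held 2 and 3 held 3. Of the neighbours of members within 5 kb, 20 of 65 were members (30.8%), against 25.6% of neighbours of all pairs. Within 100 kb it was 58 of 236 (24.6%), against 22.01%. In the highest 25% of pairs, 84 of 263 neighbours within 100 kb were of the same class (31.9%), against 24.5% of neighbours of all pairs. Neighbouring sites share a region and are not independent.

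The 2 groups with 3 members each held no other pair. On chromosome 5 from 33258192 to 33312399, percentiles went from 68.6 to 5.51, from 71.1 to 49.7 and from 19.98 to 1.71, and all 3 sites were lower against input. On chromosome 9 from 87461412 to 87471372, within 9.96 kb, they went from 59.1 to 39.6, from 95.998 to 71.7 and from 33.9 to 14.1. Of these last 3, the first was among the 6 members not lower against input (percentile 53.9 to 56.9).

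Chromosomes differed in the share of their pairs that were members. The highest share was on chromosome 7, with 39 of 102 pairs (38.2%, 29.4 to 47.9%), against 24.3% of the 2129 pairs elsewhere. The lowest was on chromosome 11, with 6 of 52 (11.5%, 5.4 to 22.97%). The intervals of the other 21 of 23 chromosomes held 25%. Chromosomes 7 and 11 were singled out after all 23 had been seen, so their intervals do not allow for that choice. The members of chromosome 7 lay in 38 groups chained at 100 kb, between 6424972 and 151123977. At each of the 35 with a peak in both input-controlled lists the percentile was lower against input as well. The same held at 98.8% of all members and 54.0% of all pairs with both, so it does not mark chromosome 7. With members chosen in the input-controlled lists instead, the share on chromosome 7 was 28.5%, against 24.8% elsewhere.

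**Figure D5:**
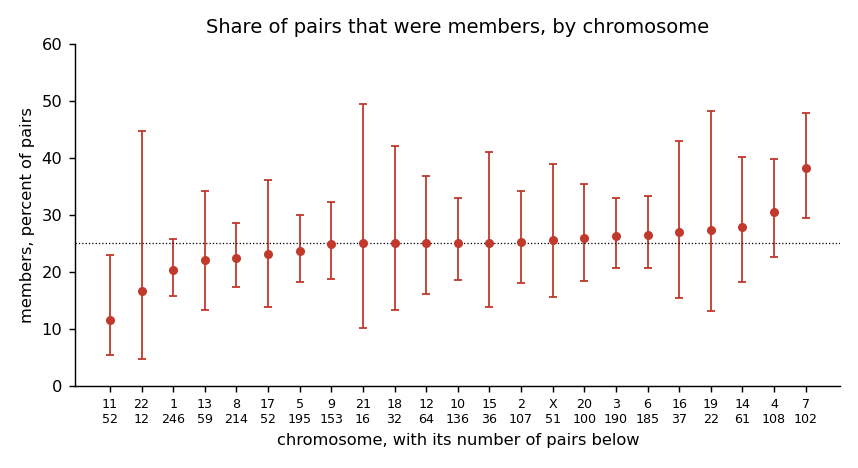
Percent of the pairs of each chromosome that were members, ordered from lowest to highest, with 95% Wilson intervals; the number of pairs is printed under each chromosome and the dotted line marks the 25% of all pairs. Chromosome 7 at 38.2% and chromosome 11 at 11.5% lie away from the line.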

How the data were processed

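ChIP-seq peaks of the 2 c-Jun libraries were taken from 4 lists, in each of which 1 library was called against IgG or input, per the labels. Per the submitters' processing notes, CASAVA 1.8 and Bowtie 0.12.9 were used and the build was hg19. Peak names begin with MACS, per the file contents. The sources used here do not give the caller's version, its threshold or read numbers. Column values deposited for peaks are a score from the authors' calling, 50 or higher, on a scale that is not stated, so scores were used only to rank peaks within a list. Ranks in lists of different length do not measure a change in binding.

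Starts were raised by 1 to 1-based positions. Percentiles are 100 times the rank from the lowest score, ties averaged, divided by the list length. An input-controlled value is that of the highest scoring overlapping peak of the same library. The lists, the rule and the members were chosen with earlier results of these data known. Regions named are the 10 largest falls and the 10 highest scores without TNFalpha; other regions and the chromosomes named were chosen after their values were seen. Motifs, gene starts and the gene lists set out in the plan were not analysed here, since no hg19 genome or annotation was used. Calculations used Python 3.11.15, numpy 2.4.6, pandas 2.3.3, scipy 1.17.1 and matplotlib 3.10.9, and overlaps were checked against bedtools 2.31.1 (0 of 12 counts differed).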

Additional observations from a re-analysis of the deposited data

How the results depend on the processing

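No paired analysis was possible because there was 1 c-Jun library without TNFalpha and 1 with it, so none could be left out. The alternatives for motifs and gene starts were not run, and with members chosen in the input-controlled lists the input-controlled change is the rule's own value and is not given. Over 12 alternatives the median width ratio stayed below 1 and the percent narrower stayed above 50%. The rule itself fixes the sign of the median percentile change, and counts and shares have no direction to reverse. The input-controlled change, from the same c-Jun reads, stayed negative wherever it was taken. The cause of each difference was not tested beyond the construction of the alternative. Values follow in the order number of members, median percentile change, median width ratio, percent narrower, median input-controlled change and percent lower against input. The main values were 557, -32.7, 0.89, 69.1%, -23.0 and 98.8%. With both peaks in the higher scoring 50% of their lists the first 5 were 262, -15.8, 0.93, 61.8% and -13.2. With the lowest 10% of pairs they were 223, -48.8, 0.82, 79.8%, -32.7 and 100%, and with the lowest 50% they were 1115, -16.1, 0.97, 56.3%, -12.1 and 93.3%. With lists of equal length the change was -38.6, the ratio 0.93, the percent narrower 62.0%, the input-controlled change -15.7 and the percent lower 96.2%. With the input-controlled lists there were 1022 members, with a change of -35.0, a ratio of 0.85 and 73.1% narrower. With percentiles taken among paired peaks only the change was -34.1. A peak found only with TNFalpha lay within 20 kb of 11.8% of members, of 7.73% with the input-controlled lists and of 8.52% with the lowest 10%. The share of the pairs on chromosome 7 that were members was 38.2%, and 28.5% with the input-controlled lists, 14.7% with the lowest 10% and 58.8% with the lowest 50% of pairs (24.8%, 9.77% and 49.6% elsewhere). The members were not a fixed set: 519 of 557 were kept with reciprocal overlap of at least 50%, 502 with percentiles among paired peaks, 330 with lists of equal length, 281 with the input-controlled lists and 129 with both peaks in the higher scoring 50%. Of the 10 largest falls, 6 were kept with reciprocal overlap, 8 with 1 pair for each peak without TNFalpha and 0 with lists of equal length, which leave those peaks out.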

Other observations

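Some members lay beside a shared site that moved the other way. Within 5 kb there were 11 neighbouring couples of a member and a pair of the highest 25%, with 10 different members, and in none did both peaks share a partner. Of the 11, 8 had all input-controlled values, and in these 8 the percentile against input was lower with TNFalpha at the member and higher at its neighbour. The choice of the couples nearly fixes this, since both kinds of list share all c-Jun reads. Against input, 98.8% of members were lower with TNFalpha, and 4.08% of the highest 25% of pairs were. On chromosome 1 the member from 201683720 to 201684084 went from percentile 78.9 to 15.2, while a peak from 201682544 to 201682975 went from 49.95 to 77.4. Against input these went from 97.8 to 67.8 and from 71.5 to 86.4. On chromosome 3 the member from 177548173 to 177548673 went from 63.7 to 32.9, and the peak from 177545182 to 177545786 went from 52.4 to 99.3. A member on chromosome 9 from 137787721 to 137788208, at percentile 95.3 without and 70.4 with TNFalpha, had a peak of the highest 25% on both sides. Pairs of the highest 25% were 11 of the 65 neighbours of members within 5 kb (16.9%), where they were 22.05% of the neighbours of all pairs, so such couples made up a smaller share than in the background; that difference was not tested. The couples were looked for after the values had been seen.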
